A study of Mus musculus with 5 samples.

Results

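Prenatal peaks lost after birth are stretches of open chromatin that were called in mouse hindlimb muscle before birth and not after it. They were chosen by peak calls alone: a peak of the wild-type (WT) library at E18.5 (the embryonic day) had to overlap, by at least 1 base, a peak of WT E14.5 and a peak of the E18.5 knockout, and no peak of WT postnatal day 5 (P5) or WT adult. This selected 4670 of the 91265 E18.5 peaks, or 5.12%, and 11.0% of the 42405 E18.5 peaks that overlapped a peak of both other prenatal libraries. The libraries came from skeletal muscle of C57bl6n mice, with RNA and open chromatin (ATAC) read in the same nuclei, and each group was 1 library of pooled hindlimbs: 56 at WT E14.5, 14 at WT E18.5, 8 at WT P5, 4 at WT adult and 26 for Cacna1s-/- at E18.5. The Cacna1s-/- embryos (KO) carried a cassette in place of the coding region of Cacna1s, which encodes the voltage sensor that couples excitation to contraction. Nuclei positive and negative for the myonuclear protein PCM1 were sorted and mixed in equal volumes, so the share of myonuclei was set in part by the sort. With 1 library in each group there was no replicate check, no test was made, and every interval below covers counting error only.

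Open chromatin at promoters and enhancers is where transcription factors bind, and a tissue closes some of these elements as it matures. In muscle, fetal fibers use embryonic isoforms of the contractile proteins and make fusion proteins and fetal acetylcholine receptor subunits, and adult fibers replace them. A peak call states that reads in a region stood above background in that library. The files give counts only for the peaks of each library, so a region without a P5 or adult call could still hold reads there, and "lost" is used below for the absence of a call.

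The E14.5 library kept 4812 nuclei with 22230795 ATAC counts, E18.5 kept 4261 with 36411805, P5 kept 3747 with 23438339, adult kept 5106 with 45268051, and KO kept 3228 with 13899642. The peak lists held 65624, 91265, 67013, 81124 and 61874 peaks in the same order. In nuclei with Ttn at 1% or more of their gene UMIs, Cacna1s RNA was at 207 CPM (UMIs per 1000000 UMIs) in the E14.5 library, 189 in E18.5, 349 in P5, 326 in adult and 0.720 (8 UMIs) in KO. Between 86 and 146 barcodes of a library also occurred in another library.

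Few of the lost peaks lay at promoters, and those that did included genes of the fetal sarcomere. Of 32851 promoter windows in the RefSeq table (GRCm38.p6, 250 bases before to 50 after a gene's start), 213 overlapped a member, for 200 genes, and 150 windows lay wholly inside one. Windows overlapping any E18.5 peak numbered 15624. Shown are 4 of the windows wholly inside a member, for genes on the lists used below: Myh3 (embryonic myosin heavy chain), Tnni1 (slow skeletal troponin I), Bmpr1b (a bone morphogenetic protein receptor) and Nnat (neuronatin, an imprinted gene). They run 5′ to 3′ on the strand of the gene, and capitals mark every match to the motifs named after them.
Myh3, chr11:67078050-67078349, plus strand: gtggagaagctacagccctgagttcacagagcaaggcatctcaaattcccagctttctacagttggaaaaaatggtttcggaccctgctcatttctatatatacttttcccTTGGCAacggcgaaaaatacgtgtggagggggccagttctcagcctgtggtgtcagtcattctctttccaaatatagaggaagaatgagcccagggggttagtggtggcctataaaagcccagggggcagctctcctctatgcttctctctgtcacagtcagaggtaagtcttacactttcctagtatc
Tnni1, chr1:135799171-135799470, plus strand: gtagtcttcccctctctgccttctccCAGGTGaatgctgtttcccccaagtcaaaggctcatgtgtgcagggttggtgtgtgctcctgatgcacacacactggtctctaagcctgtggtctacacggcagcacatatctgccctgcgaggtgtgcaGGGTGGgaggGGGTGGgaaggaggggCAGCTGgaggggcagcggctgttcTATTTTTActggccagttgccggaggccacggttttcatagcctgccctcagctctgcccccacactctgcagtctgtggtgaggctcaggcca
Bmpr1b, chr3:141931371-141931670, minus strand: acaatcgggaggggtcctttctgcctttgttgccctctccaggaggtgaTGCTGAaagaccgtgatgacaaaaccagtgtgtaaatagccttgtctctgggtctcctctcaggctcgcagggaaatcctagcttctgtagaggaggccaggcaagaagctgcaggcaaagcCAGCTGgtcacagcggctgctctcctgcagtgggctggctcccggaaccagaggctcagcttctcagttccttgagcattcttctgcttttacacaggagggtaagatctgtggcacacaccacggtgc
Nnat, chr2:157559828-157560127, plus strand: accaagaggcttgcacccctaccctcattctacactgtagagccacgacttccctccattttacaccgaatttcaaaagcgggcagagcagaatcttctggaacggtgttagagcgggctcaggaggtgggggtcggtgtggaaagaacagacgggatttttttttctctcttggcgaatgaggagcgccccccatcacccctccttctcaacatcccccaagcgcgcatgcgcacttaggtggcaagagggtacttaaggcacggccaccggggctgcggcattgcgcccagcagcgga

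The motifs were searched on both strands. They were the E-box CAGCTG and the related E-box CACCTG (bound by myogenic factors such as Myog), CATTCC for TEAD factors, CCACCC for KLF factors, TGANTCA for AP-1, TTGGCA for NFI, TAAAAATA for MEF2 and TGCTGA, a partial site of Maf factors. The Tnni1 window held CAGCTG at bases 183 to 188 and the MEF2 motif at 207 to 214, with the KLF motif starting at 157 and 167 and the reverse of CACCTG at 27. The Myh3 window held only the NFI motif, at bases 112 to 117. Bmpr1b held the Maf motif at 50 and CAGCTG at 172, and Nnat held none of the letters searched. The Myh3 and Tnni1 members were at least 2-fold higher in Ttn nuclei, and those of Bmpr1b (155 counts) and Nnat (158 counts) were within 2-fold, at log2 ratios of 0.22 and -0.49. CAGCTG was in 55 of the 213 windows that overlapped a member (25.8%), in 16.3% of all windows and in 15.3% of the 12880 windows that overlapped a peak shared by all 5 libraries. The TEAD motif was in 18.8%, 14.7% and 11.6% of these sets, and the MEF2 motif in 5.16%, 2.72% and 1.10%. The Maf motif was in 22.1%, 19.5% and 14%, and the NFI motif in 16%, 14.1% and 10.3%. CACCTG was in 23%, 20.2% and 17.5%, and the AP-1 motif in 7.51%, 7.81% and 3.95%. Higher shares at members than at shared peaks were thus not limited to CAGCTG, TEAD and MEF2. In the 44 windows at members with at least 2-fold more ATAC counts in Ttn nuclei (explained below) CAGCTG was in 20 (45.5%), the TEAD motif in 15 (34.1%) and the MEF2 motif in 5 (11.4%). Of the other motifs there, CACCTG was in 31.8%, KLF in 29.5%, Maf in 22.7%, NFI in 13.6% and AP-1 in 9.09%. Windows at other peaks higher in Ttn nuclei were not counted. Whether the shares in these 44 windows are particular to members was therefore not tested. The KLF motif was in 33.8% of the windows at members, 31.5% of all windows and 37.1% of those at shared peaks. Base composition differed as well, with a median GC content of 54.3% at members, 52.7% over all windows and 62.3% at shared peaks, and its part in the motif shares was not tested. Several genes have windows that overlap each other. The motif shares describe these promoter windows alone, since most members lay elsewhere.

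Most members were far from any start site. The median distance from a member to the nearest start-site interval of a gene in the files was 20437.5 bases, against 12968 over all E18.5 peaks and 1856.5 for the 31606 E18.5 peaks that overlapped a peak of every other library (shared peaks). More than 1000 bases lay between 3875 members (83.0%) and every interval, against 72.4% of all E18.5 peaks and 51.9% of shared peaks. By GENCODE vM21, 42.5% of members were intronic, 40.1% intergenic, 4.03% exonic and 13.4% within 1000 bases of a transcript start, and these shares over all E18.5 peaks were 36.8%, 33.8%, 3.52% and 25.8%. The median width was 877 bases for members and 880 for all E18.5 peaks. Some start-site intervals are long, so 515 of the 668 members at distance 0 lay in an interval of over 1000 bases.

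**Figure D1:**
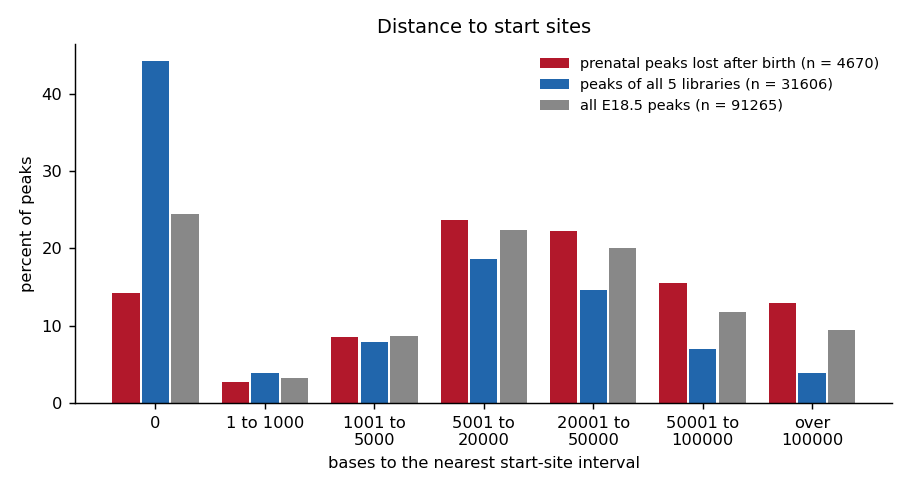
Percent of peaks (vertical axis) by bases to the nearest start-site interval (horizontal axis), for the 4670 members, the 31606 peaks of all 5 libraries and all 91265 E18.5 peaks. Members are the least frequent of the 3 sets at distance 0 (14.3%, 44.2% and 24.4%) and the most frequent beyond 100000 bases (13%, 3.87% and 9.48%).

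The edge of the rule was sharp for few members. The median gap from a member to the nearest P5 or adult peak was 5244.5 bases, 440 members had such a peak within 500 bases and 60 within under 50. Just inside, a member near Gm28653 with 129 counts touched a postnatal peak with no shared base, and members near Tmem273 (116 counts) and Cald1 (296 counts) lay 4 bases from one. Just outside, E18.5 peaks near 9130017K11Rik (202 counts) and Gm9999 (198 counts) shared 1 base with one, and 35 peaks failed by 50 bases or fewer.

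Members held a larger share of the ATAC counts in Ttn nuclei than in the sum of the other nuclei. Nuclei were split at 1% of gene UMIs from Ttn, which encodes the giant sarcomere protein titin. Between 0.5% and 2% from Ttn lay 11.8% of E18.5 nuclei. The split gave 1579 Ttn nuclei of 4261 at E18.5, 1867 of 4812 at E14.5 and 987 of 3228 in KO. The 14 myonuclear markers summed to 65897 CPM in Ttn nuclei and 2260 CPM in other nuclei at E18.5, and the 15 mesenchymal markers to 1981 and 10228 CPM. At E18.5 members held 3.26% of the ATAC counts of Ttn nuclei and 2.02% of those of other nuclei. Among other nuclei in which the markers of 1 class led, the share was 1.78% for mesenchymal, 1.75% for endothelial, 1.85% for macrophage and 1.64% for smooth muscle and pericyte markers. It was 3.35% in the 228 nuclei under 1% Ttn that were led by myonuclear markers, above the Ttn nuclei, and 2.74% in the 247 in which no list led. At E14.5 the share was 5.76% in Ttn nuclei and 3.32% in the others, and in KO it was 4.73% and 3.30%. The nuclei under 1% Ttn led by myonuclear markers were at 5.02% at E14.5 and 4.49% in KO. Shares of different libraries depend on how many peaks each library called and are not compared. In E18.5, 1 member near Gm42418, a gene of the ribosomal RNA repeat region, held 36869 of the 920607 counts in members, and the next largest held 2489. Over all kept E18.5 nuclei members held 2.53% of counts, and 2.43% without it.

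**Figure D2:**
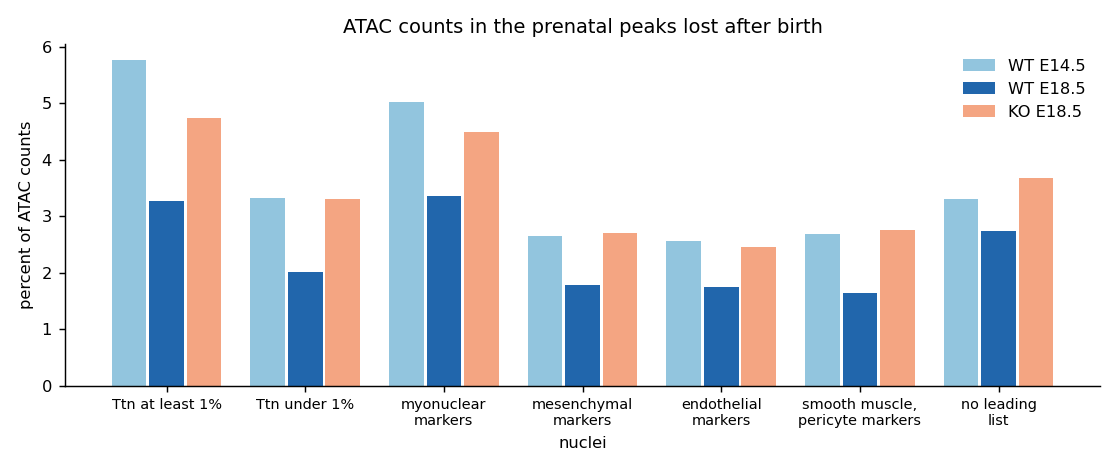
Percent of all ATAC counts that fell in the members (vertical axis), for nuclei of 3 prenatal libraries split by Ttn and, among nuclei under 1% Ttn, by leading markers (horizontal axis). Each bar is 1 library, so there is no error bar. The Ttn nuclei have the highest bar at E14.5 (5.76%) and in KO (4.73%), and at E18.5 their bar (3.26%) is just below that of the other nuclei led by myonuclear markers (3.35%).

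Peak by peak, 2244 of the 4669 members with at least 20 counts at E18.5 (48.1%) had at least 2-fold more ATAC CPM in Ttn nuclei, where 18.2% of all E18.5 peaks did. In the opposite direction, 521 members (11.2%) were at least 2-fold lower in Ttn nuclei, against 23.6% of all peaks. The median log2 ratio was 0.93 for members, -0.12 for all E18.5 peaks and -0.01 for shared peaks. Of shared peaks, 14.1% were at least 2-fold higher, and of the 4428 E18.5 peaks that were called at E14.5, in KO and at P5 and lost only in adult, 25.3% were. The counting interval of the ratio lay above 1 for 2875 of the 4669 members and below 1 for 843. Over all 91161 measured E18.5 peaks, the interval lay above 1 for 27411 and below 1 for 35820.

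The same split in the other prenatal libraries gave the same direction. At E14.5, 47.4% of the measured peaks that overlapped a member were at least 2-fold higher in Ttn nuclei, against 22.4% of all E14.5 peaks, and 14.1% were lower, against 15.5%. In KO 36.9% were higher, against 17.5% of all KO peaks, and 15.5% were lower, against 20.6%. Of 4652 members with at least 20 counts in each of the 3 libraries, 1383 (29.7%) were at least 2-fold higher in Ttn nuclei in all 3, 332 (7.14%) were lower in all 3, and 48 were higher in 1 library and lower in another. These counts describe members whose calls in these libraries chose them. The same count over the 3 libraries was not made for all peaks or for shared peaks. Whether such agreement is particular to members was therefore not tested.

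**Figure D3:**
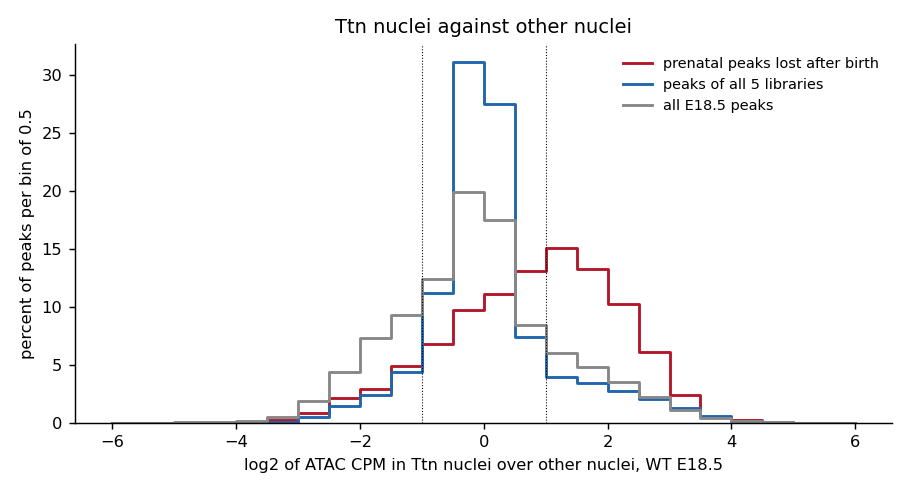
Percent of E18.5 peaks with at least 20 counts (vertical axis, per bin of 0.5) by log2 of ATAC CPM in Ttn nuclei over other nuclei (horizontal axis), with dotted lines at 2-fold in each direction. The curve of the members lies to the right of the other curves, with a median of 0.93 against -0.01 for peaks of all 5 libraries and -0.12 for all E18.5 peaks.

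The higher share was present at each depth from 50 counts and at each location. Of members with 50 to under 100 counts 45.2% were higher in Ttn nuclei (17.7% of all peaks of that depth), and of those with 400 or more, 42.2% (11.8%). The 27 members with 20 to under 50 counts did not show it, with 11.1% higher against 12.9% of all peaks of that depth. Within 1000 bases of a transcript start 34.1% of members were higher, against 9.84% of all E18.5 peaks there. In introns the shares were 53.2% and 24.0%, in exons 57.4% and 22.8%, and between genes 46.4% and 17.9%. Of the 16 combinations of calls in the other 4 libraries, the members' had the highest share of peaks higher in Ttn nuclei, and the next, which also had an adult call, had 38.4%. Peaks called at E18.5 and P5 alone had 5.14%, the lowest.

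**Figure D4:**
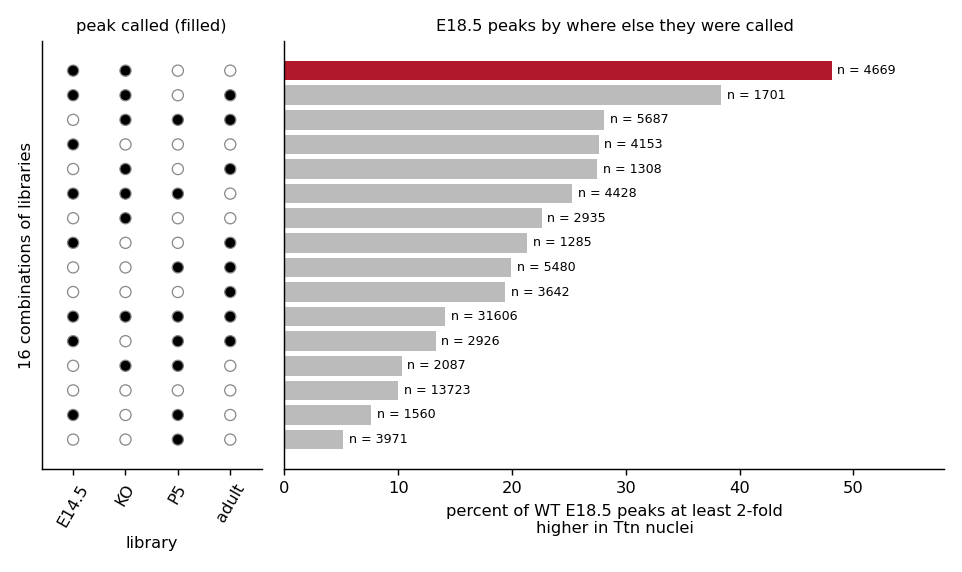
Percent of E18.5 peaks at least 2-fold higher in Ttn nuclei (horizontal axis, bars) for each of the 16 combinations of libraries in which an overlapping peak was called (filled circles), with the number of peaks measured beside each bar. The red bar is the members, at 48.1%, and the other bars range from 5.14% to 38.4%.

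The ratios of single members spanned a wide range. The highest among members of at least 100 counts was 55.2-fold (95% interval 18.4 to 272), at an intergenic member near Zc2hc1a (chr3:7487647-7488374), with 114 counts in Ttn nuclei and 3 in the others. A member 13232 bases from Rbm24, which encodes an RNA-binding protein that controls muscle splicing (chr13:46404300-46405201), had 178 and 6 counts and a 43.1-fold ratio (19.4 to 119). It was 11.3-fold higher at E14.5 and 8.82-fold in KO. At the other end, an intergenic member nearest to Slc39a10 (chr1:46905390-46906265), a zinc transporter gene, had 5 counts in Ttn nuclei and 215 in the others and was 29.6-fold lower in Ttn nuclei (12.5 to 92). An intronic member of Rbms3 (chr9:117422995-117423795) was 17.3-fold lower (7.24 to 54.3).

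The 10 members with the most counts were less uneven, and 6 of them lay within 1000 bases of a transcript start. After the Gm42418 peak, 2.28-fold lower in Ttn nuclei, came members nearest to Ppp2r3d (2489 counts, 1.40-fold lower in Ttn nuclei) and Zfp827 (1577 counts, 1.25-fold lower). Next were those nearest to Flnc, which encodes filamin C (1286 counts, 1.16-fold lower), Cic (1235 counts, 2.59-fold lower) and Traf4 (1039 counts, 2.98-fold lower). Those nearest to Cirbp (1026 counts, 1.70-fold higher) and Malat1 (1003 counts, 2.43-fold higher) were intergenic, 5965 and 7428 bases away. The last were nearest to Hmgn2 (984 counts, 1.38-fold lower) and Asxl1 (926 counts, 1.01-fold lower). A P5 or adult peak lay close to those of Asxl1 (99 bases), Hmgn2 (119), Cic (178), Flnc (240), Zfp827 (407) and Traf4 (444). Of all members, 440 had one within 500 bases.

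Contractile genes of the embryonic sarcomere were close to members more often than adult ones were. This list of 14 genes had 57 nearest E18.5 peaks, of which 9 (15.8%) were members, and all 9 were at least 2-fold higher in Ttn nuclei, where 18.2% of all E18.5 peaks were. The Myh3 start site (chr11:67077784-67078529) had 413 counts in Ttn nuclei and 54 in the others, a ratio of 11.1 (8.36 to 15.1). The peak that overlapped it held 469 counts at E14.5 with a ratio of 7.02, and 221 in KO with a ratio of 9.39. Another member 10074 bases from Myh3 (chr11:67067347-67068225) was 4.89-fold higher (3.51 to 6.92). Of the other 4 E18.5 peaks nearest to Myh3, all had a P5 call and 3 had an adult call, so the calls lost were those of the start site and of this upstream element. Myl4, the embryonic and atrial myosin light chain, had a member at chr11:104576511-104577382 that was 6.79-fold higher (5.50 to 8.45). A P5 or adult peak lay 438 bases from this member. Tnni1 had members at chr1:135798955-135799747 (4.98-fold, 3.90 to 6.41) and chr1:135800414-135801319 (4.70-fold, 3.92 to 5.67). The member of Tnnt2, the cardiac and fetal troponin T (chr1:135833937-135834851), was 2.96-fold higher (2.35 to 3.74), and that of Tnnc1, the slow and cardiac troponin C (chr14:31209013-31209832), 5.02-fold (3.95 to 6.44). For the adult fast sarcomere list of 16 genes, 3 of 56 nearest peaks were members (5.36%), near the background of 5.12%. They were 2 nearest to Myl1 (7.97-fold and 7.78-fold higher) and 1 in an intron of Atp2a1 (4.75-fold), the calcium pump of fast fibers. The Atp2a1 member was at the edge of the rule, with a P5 or adult peak 16 bases away.

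RNA in Ttn nuclei was at least 2-fold lower at P5 than at E18.5 for 5 of the 7 embryonic sarcomere genes nearest to a member. Of all genes measured, 21.4% were. In adult all 7 were at least 2-fold lower than at E18.5, where 46.8% of all genes measured were. In Ttn nuclei, Myh3 was at 1378 CPM in the E14.5 library, 992 in E18.5, 94.0 in P5, 0.152 (3 UMIs) in adult and 899 in KO, and was 10.6-fold lower at P5 than at E18.5 (9.94 to 11.2). Tnni1 was at 390, 256, 37.0, 1.97 and 189 CPM in the same order and 6.91-fold lower at P5 (6.26 to 7.65). Myl4 was at 270, 291, 40.1, 2.18 and 324 CPM and 7.27-fold lower at P5 (6.62 to 8.01). In each of these genes the adult level was the lowest and the prenatal levels, KO among them, were the highest. Tnnt2 was 19.3-fold lower at P5 (15.9 to 23.7) and Tnnc1 5.99-fold (5.31 to 6.78). The exceptions at P5 were Actn2 (alpha-actinin 2), at 1446 CPM at E18.5 and 1666 at P5, and Myl2, the slow and ventricular myosin light chain, at 34.3 and 37.2. Myosin heavy chain paralogs lie side by side with Myh3, and reads may be split between them.

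The study's own developmental genes, among them Myh3 and Tnnt2 of the list above, were close to members as well. Of 67 E18.5 peaks nearest to these 9 genes, 15 (22.4%) were members and 13 of the 15 were at least 2-fold higher in Ttn nuclei. The study chose this list on these libraries, so its direction is no independent evidence. Mymk (myomaker, the membrane protein needed for myoblast fusion) had 1 member, 8187 bases away (chr2:27058836-27059680), with 358 counts in Ttn nuclei and 127 in the others, a ratio of 4.10 (3.34 to 5.06). Of the 3 E18.5 peaks over its start-site interval, 1 was called at P5 and none in adult. Chrng, the fetal gamma subunit of the acetylcholine receptor, had 1 member, 4401 bases away (chr1:87200576-87201409), at 6.19-fold (4.48 to 8.69), and 7.21-fold in KO. The 3 other E18.5 peaks nearest to Chrng were all called at P5 and not in adult. Mymx (myomixer, a second fusion protein) had a member 13679 bases away (chr17:45615782-45616759) at 1.88-fold (1.48 to 2.37). Col25a1, a collagen of muscle needed for motor innervation, had 3 intronic members at 4.26-fold (3.02 to 6.12), 2.85-fold (1.74 to 4.76) and 3.90-fold (2.35 to 6.68).

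All 8 genes of this list with a member were at least 2-fold lower in Ttn nuclei at P5 than at E18.5, and also in adult. Of all genes measured in Ttn nuclei, 21.4% were lower at P5 and 46.8% in adult. Since the study chose the list on these libraries, these falls are no independent evidence either. In Ttn nuclei, Chrng was at 71.6 CPM in the E14.5 library, 85.1 in E18.5, 5.40 in P5, 0.0506 (1 UMI) in adult and 141 in KO, and was 15.8-fold lower at P5 (12.3 to 20.5). Mymk was at 59.3, 41.1, 3.76, 0 and 63.6 CPM, 10.9-fold lower at P5 (8.08 to 15.1), and its 0 UMIs in adult allow up to 0.152 CPM. Col25a1 was at 1226, 538, 166, 3.04 and 2758 CPM and 3.23-fold lower at P5 (3.08 to 3.40). Its KO level was above that of every WT library. Tmem108 was at 1005, 98.3, 6.95, 0.709 and 129 CPM, 10.2-fold higher at E14.5 than at E18.5 (9.64 to 10.9) and 14.1-fold lower at P5 (11.3 to 17.8).

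**Figure D5:**
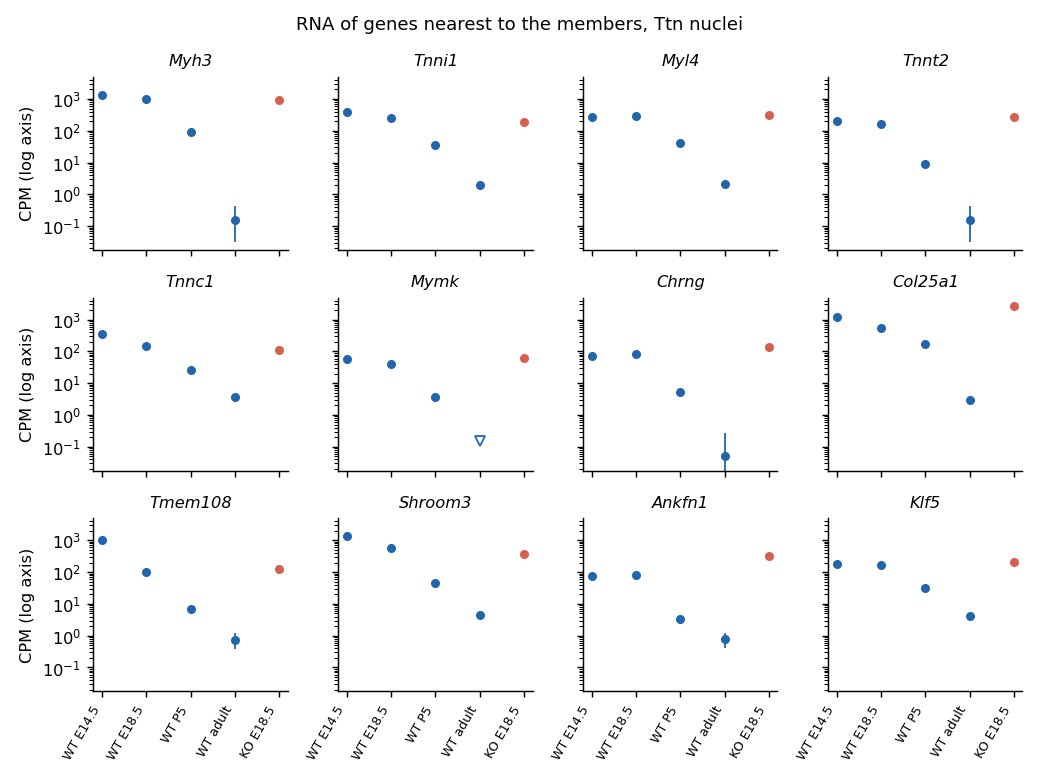
RNA level in Ttn nuclei (vertical axis, CPM on a log axis) of 12 genes nearest to members in the 5 libraries (horizontal axis; WT blue, KO red), with exact Poisson 95% intervals. The open triangle is the limit of 0.152 CPM that 0 UMIs allow for Mymk in adult. Each gene is lower at P5 than at E18.5 and lower again in adult.

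Factors of fetal muscle had members of their own. Myog, the myogenic regulator of terminal differentiation, had members 12396 bases away (chr1:134276813-134277592), at 5.71-fold (4.27 to 7.76), and 23501 bases away, at 1.64-fold (1.17 to 2.30). A P5 or adult peak lay 260 bases from the 5.71-fold member. Klf5, a zinc finger factor, had members 2403 bases away (chr14:99295424-99296287), at 5.21-fold (3.28 to 8.57), and 26589 bases away (chr14:99325744-99326641), at 5.85-fold (4.23 to 8.23). Tead4, a TEAD factor, had 2 intronic members at 4.16-fold (chr6:128259013-128259921, 3.32 to 5.26) and 1.67-fold (1.21 to 2.31). For all 3 genes a peak over the start-site interval was called at P5 and in adult. RNA fell in Ttn nuclei from E18.5 to P5 from 52.5 to 10.5 CPM for Myog (5.01-fold, 4.14 to 6.11), from 165 to 32.1 for Klf5 (5.14-fold, 4.61 to 5.74) and from 206 to 56.6 for Tead4 (3.65-fold, 3.35 to 3.97). Of the 17 stage factors that the study names, 6 were nearest to 10 members of 153 peaks (6.54%, against 5.12% of all E18.5 peaks). In Ttn nuclei 3 of the 6 were at least 2-fold lower at P5, where 21.4% of all genes measured were. All 6 were at least 2-fold lower in adult, where 46.8% of all genes measured were. The study named these factors by their stage in these libraries, so their falls are no independent evidence. Plag1 (member at 5.6-fold), Elk3 (4.44-fold and 4.11-fold) and Etv5 (7.66-fold) were not 2-fold lower at P5.

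Genes of myoblast fusion, a list of 17, had 13 members of 158 peaks (8.23%), and 6 of the 13 were at least 2-fold higher in Ttn nuclei. Of the 10 genes nearest to a member, 6 were at least 2-fold lower at P5 in Ttn nuclei and 1, Stab2, was higher. Of all genes measured, 21.4% were lower and 7.68% higher. Cdh15 (M-cadherin, an adhesion protein of myoblasts) had members at 2.99-fold (2.57 to 3.49) and 2.06-fold (1.74 to 2.45), and its RNA was 5.77-fold lower at P5 (4.93 to 6.79). A P5 or adult peak lay 353 bases from the 2.06-fold member. Jam3, an adhesion molecule, was 5.24-fold lower (4.81 to 5.71) although its member, at 1.45-fold (1.12 to 1.88), was below the 2-fold limit. Stab2, a scavenger receptor that takes part in fusion, ran the other way, at 2.53 CPM in the E18.5 library, 11.5 in P5 and 35.6 in adult.

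Other lists lay on both sides of the background of 5.12%. Members were 10 of the 111 E18.5 peaks nearest to genes of the neuromuscular junction (9.01%), 20 of 236 for axon guidance (8.47%) and 17 of 215 for Wnt, Bmp and Hedgehog signaling (7.91%). Myogenic regulators had 16 of 210 (7.62%), the cell cycle 6 of 77 (7.79%) and imprinted growth genes 7 of 101 (6.93%). These lists hold genes that guide axons, pattern the limb and drive growth before birth. Of the 13 axon guidance genes nearest to a member 3 were at least 2-fold lower at P5 in Ttn nuclei, near the 21.4% of all genes measured. Among the 3 was Sema3e, a secreted semaphorin, at 81.7 CPM at E18.5 and 13.2 at P5 (6.16-fold). Of the 10 myogenic regulators 5 were lower and 1 was higher. Below the background were tendon and skeletal patterning (10 of 206, 4.85%), IGF and growth factor signaling (8 of 229, 3.49%) and matrix genes (8 of 232, 3.45%). None of the 82 peaks nearest to fatty acid oxidation genes and none of the 55 nearest to glycolysis and phosphagen genes were members, and these are pathways of mature fiber metabolism.

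Shares of members among the peaks nearest to markers of other cell types lay on both sides of the background of 5.12%. There were none of 146 for mesenchymal cells, none of 45 for neurons, none of 16 for adipocytes and none of 3 for erythroid cells. There were 2 of 84 for endothelium (2.38%), 1 of 22 for macrophages (4.55%), 1 of 23 for Schwann cells and glia (4.35%), 2 of 39 for smooth muscle and pericytes (5.13%) and 2 of 29 for tenocytes (6.90%). The highest shares were those of muscle progenitors (9 of 74, 12.2%), chondro-osteogenic cells (6 of 42, 14.3%) and keratinocytes (3 of 25, 12%). The myonuclear markers themselves had 6 of 78 (7.69%). Of the 6 members of the chondro-osteogenic list, 4 were at least 2-fold higher in Ttn nuclei and 1 was lower. The 4 higher members lay inside other genes, far from the list gene. Those nearest to Col9a1, 140543 and 169350 bases away, were in introns of Col19a1. The member nearest to Hapln1, 339756 bases away, was in an exon of Edil3. The member nearest to Runx2, 164404 bases away, was in an intron of Supt3. The 3 of the keratinocyte list were all near Trp63, a p53-family gene, and all higher in Ttn nuclei, in which Trp63 RNA was at 282 CPM at E18.5 and 602 at P5. These shares rest on few genes each and were not tested.

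Some genes had members in clusters. The 4670 members were nearest to 3607 genes, 760 of which were nearest to 2 or more members. Shroom3, which encodes an actin-binding protein, and Ankfn1 had the most, with 8 each. For Shroom3 these were 8 of 28 nearest E18.5 peaks, all intronic, and 6 were at least 2-fold higher in Ttn nuclei, up to 7.27-fold (4.28 to 13.1). Shroom3 RNA in Ttn nuclei was at 1322 CPM in the E14.5 library, 555 in E18.5, 46.1 in P5, 4.61 in adult and 374 in KO, and was 12.0-fold lower at P5 (11.0 to 13.1). For Ankfn1 they were 8 of 23, and 5 were higher, up to 9.22-fold (6.53 to 13.3). Ankfn1 was at 73.7, 79.9, 3.27, 0.759 and 328 CPM in the same order and 24.4-fold lower at P5 (17.8 to 34.4). No other gene had more than 5. Of the genes with 5 members, the first 8 in the order of the rule for named genes had little or no RNA in Ttn nuclei at E18.5. They were Bmp7 at 1.5 CPM, Fzd8 at 4.66, 9430078K24Rik at 1.03, Gm16122 at 1.03, Gm13582 at 0.710, Ddi1 at 0.158, and Cartpt and Gm28231 at 0 UMIs. Some of these clusters lay in introns of other genes, so the name gives only the nearest start-site interval. The members nearest to Gm16122 lay in introns of Mad1l1 and most of those nearest to Ddi1 in introns of Pdgfd. Some of those nearest to 9430078K24Rik lay in introns of Rad51b. Megf10, a receptor of satellite cells and one of the myogenic regulators listed, also had 5 members and was at 70.3 CPM, 2.86-fold lower at P5 (2.50 to 3.27).

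Over all nearest genes the RNA shifts were smaller than at the named genes. The number of nuclei of a type and the RNA per nucleus cannot be told apart in sums over all nuclei. In all nuclei 387 of 2376 nearest genes (16.3%) were at least 2-fold lower at P5 than at E18.5, against 12.9% of all genes measured and 10.8% of genes nearest to a shared peak and no member. At least 2-fold higher at P5 were 6.48% of nearest genes and 6.43% of all genes. In adult 1424 of 2359 (60.4%) were lower, against 54.2% of all genes, whose median log2 change was itself -1.16. The adult library held 86.7% Ttn nuclei, against 37.1% at E18.5. The median of all genes at P5 was at -0.27, and scaling by median-of-ratios size factors moved it to -0.03 and that of adult to -0.09. With these factors 11.7% of nearest and 8.19% of all genes were lower at P5, and 9.43% and 8.92% were higher. In adult 42.5% and 33.3% were lower with them, and 21.4% and 22.6% were higher, where 8.61% and 9.22% were higher before.

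In Ttn nuclei alone 578 of 2104 nearest genes (27.5%) were at least 2-fold lower at P5, against 21.4% of all genes, and 7.75% were higher, against 7.68%. In adult 1221 of 2092 (58.4%) were lower, against 46.8%. The share lower at P5 was 30.1% for the 1179 measured genes nearest to a member higher in Ttn nuclei, 16% for the 194 nearest only to members lower in Ttn nuclei, and 15.4% for the 1524 nearest to a shared peak higher in Ttn nuclei and to no member. Higher at P5 were 6.79%, 9.79% and 14.6% of these sets. The differences between these sets were not tested.

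Before E18.5 the nearest genes leaned the same way. In all nuclei 448 of 2467 (18.2%) were at least 2-fold higher at E14.5 than at E18.5, against 10.9% of all genes, and in Ttn nuclei 420 of 2162 (19.4%) were, against 9.94%. In KO, compared with WT E18.5 in all nuclei, 277 nearest genes (11.2%) were higher, against 8.29% of all genes, and 109 (4.42%) were lower, against 4.42%. The comparisons with E14.5, P5, adult and KO share the WT E18.5 library, so their shares are not independent of each other.

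The largest falls among nearest genes with at least 100 UMIs were those of Chrng, Tnnt2, Dmrt1, Pkp1, Gm20139, Nrg1, Tceal3, Gpr37, C130080G10Rik and D930048N14Rik in all nuclei. Dmrt1, a transcription factor gene known for sex determination, was at 1.67 CPM in the E14.5 library, 52.8 in E18.5, 0.164 (2 UMIs) in P5 and 45.0 in KO, counted in Ttn nuclei. Nrg1, which encodes the growth factor neuregulin 1, was at 392 CPM at E18.5 and 22.6 at P5 in all nuclei, and at 86.1 and 16.5 in Ttn nuclei. Not every gene near a lost peak fell. The largest rises in all nuclei were those of Vtcn1, Fbp2, Nctc1, Oca2, Gm16170, Nyap2, Ano5, Ddit4l, 2310001H17Rik and Gm3693. Fbp2, the muscle fructose bisphosphatase, was at 1.5 CPM at E18.5 and 57.5 at P5 in Ttn nuclei, 38.3-fold higher (24.4 to 64.1). Ano5, a muscle membrane protein linked to muscular dystrophy, was at 30.9 and 251 CPM, 8.14-fold higher (7.32 to 9.07). Sox6, a repressor of slow fiber genes, had 4 members and rose from 1404 to 2912 CPM (2.07-fold, 2.04 to 2.11).

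Of the 5 imprinted growth genes nearest to a member, 2 were at least 2-fold lower at P5 in Ttn nuclei (Dlk1 and Mest), 1 was higher (Nnat), and 4 were lower in adult. Of all genes measured in Ttn nuclei, 21.4% were lower at P5, 7.68% were higher, and 46.8% were lower in adult. Dlk1, an inhibitor of Notch signaling made in fetal muscle, was at 1384 CPM in the E18.5 library, 587 in P5 and 0.0506 (1 UMI) in adult in Ttn nuclei, and its 3 members were at 0.979-fold to 1.68-fold in Ttn nuclei. Igf2, the fetal growth factor, was at 592, 320 and 1.27 CPM, with 1 member at 3.72-fold (2.94 to 4.75). Rian, a maternally expressed long RNA, was at 15801 CPM in the E18.5 library, 15901 in P5 and 62.3 in adult, with a member at its start site (chr12:109604883-109605757) at 4.79-fold (4.00 to 5.76). Mest was at 73.5, 35.1 and 0.101 (2 UMIs) CPM, with a member 2.13-fold lower in Ttn nuclei. Nnat was at 9.31, 19.1 and 16.7 CPM, and so was higher at P5 (2.06-fold, 1.64 to 2.59). Rian lacked the peak call at P5 at an RNA level close to that of E18.5.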

How the data were processed

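The authors made the deposited counts (UMIs of each gene and ATAC counts of each peak in each nucleus) with Cell Ranger ARC 2.0.0 on mm10, intronic reads included, peaks called in each library and no normalization. Whether counting used the strand is not given in the sources used here, so antisense partners may share reads. The members and gene lists were chosen with earlier results of these data known.

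Nuclei were kept by the study's limits: over 400 and under 25000 UMIs, a mitochondrial share below 10% and fewer than 70000 ATAC counts. Doublets were not removed. Overlap meant 1 shared base, and distance ran from edge to edge to the start-site interval of each gene row in the files; 13 mitochondrial genes have none. The nearest gene was the one at the smallest distance, with ties given to the nearest centre. Coordinates are GRCm38 and count from 1. ATAC CPM is a peak's count over all peak counts of the nuclei, and RNA CPM a gene's UMIs over all UMIs. A feature was measured with at least 20 counts (in both groups of nuclei together for peaks, in 1 of both libraries for genes) and called at 2-fold. Ratios have exact conditional (Clopper-Pearson) 95% intervals and levels exact Poisson ones. A count of 0 was set to a floor of 3 counts. Median-of-ratios size factors and, as another alternative, TMM factors (edgeR 4.0.16) were tried for RNA. All else was computed in Python 3.11.15 with numpy 2.4.6, scipy 1.17.1 and pandas 2.3.3, and the overlap rule, the calls and the intervals were tested on simulated data. The planned motif search in the central 300 bases of each peak was replaced by RefSeq promoter windows, since the genome sequence was not used here. Nearest means the nearest interval, not a shown target. Named members were, besides those of list genes and those near Mymk, Mymx, Chrng, Tnnt2, Col25a1, Myog, Klf5 and Tead4 (within 50000 bases), taken from the 10 with the most counts, the 10 highest and lowest Ttn ratios of at least 100 counts, the 10 genes with the most members and the 10 largest falls and rises from E18.5 to P5 of genes with at least 100 UMIs. Examples were drawn from these.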

Additional observations from a re-analysis of the deposited data

How the results depend on the processing

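No paired analysis was possible because each group has 1 library, and for the same reason no replicate could be left out. Of 65 alternative values, 50 stayed within 1.5 times the main count or within the binomial interval of the main share, and 54 of 62 shares that have a background were above it; the other 8 are the shares of members lower in Ttn nuclei, all below it. With a limit of 5000 bases 74.5% of members were distal, and by GENCODE transcript starts (an alternative chosen after seeing the data) 86.6%. In the central 200 bases of the promoter windows 19.2% held CAGCTG. Nearest genes lower at P5 were 254 of 1891 with a minimum of 100 UMIs (13.4%, against 10.8% of all genes). They were 106 of 526 (20.2%, against 12.9%) among those nearest to at least 2 members. Of the latter, 341 of 528 (64.6%, against 54.2%) were lower in adult. Higher at E14.5 were 275 of 1952 (14.1%, against 7.08%) and 126 of 548 (23.0%, against 10.9%) under these 2 settings. Changed in KO were 230 of 1962 (11.7%, against 8.21%) and 89 of 554 (16.1%, against 12.7%). With a minimum of 1 UMI, 680 of 3363 (20.2%, against 17.8%) were changed in KO. Genes nearest to a member higher in Ttn nuclei were a further setting, also chosen after seeing the data. Of them, 237 of 1298 were lower at P5 (18.3%, against 12.9% of all genes). In adult 755 of 1294 were lower (58.3%, against 54.2%), and 229 of 1345 were higher at E14.5 (17%, against 10.9%). In KO 175 of 1341 were changed (13%, against 12.7%), close to the share of all genes. These settings test fewer or more genes. The libraries differed in depth (13899642 to 45268051 ATAC counts) and in the number of peaks called (61874 to 91265), and the part of depth in the missing calls was not tested. A region under the caller's limit at P5 or in adult cannot be told from one without reads.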
